A study of Rattus norvegicus with 56 samples.

Results

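The genes described here are those by which cells sense bacterial lipopolysaccharide (LPS) and related bacterial products. They are Tlr4, Cd14, Ly96, Lbp, Myd88, Tlr2, Cd180 and Irak3, 8 genes of the 14557 that a transcript cluster with exactly 1 gene symbol stands for. A transcript cluster is the set of array probes for 1 transcribed region, and 36685 of them were measured. All 8 genes had a cluster of their own, 1 each, and each was followed in all 56 arrays by procedure and injection. The list names genes by known function. In the GRCr8 build Tlr4 lies at chr5:85161247-85174882, Ly96 at chr5:7365536-7397864, Cd14 at chr18:28609558-28611409 and Lbp at chr3:167373786-167400941. Myd88 lies at chr8:127952161-127956230, Tlr2 at chr2:171499189-171504831, Cd180 at chr2:35589889-35602837 and Irak3 at chr7:57538522-57600166.

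RNA of the medial hypothalamus of 3-month-old male Wistar rats was hybridized to Affymetrix rat gene arrays, with 1 array per rat. CNT rats (n = 5 arrays) were left without any procedure or injection. SH rats had a sham operation and VG rats a subdiaphragmatic vagotomy, in which the vagus nerve is severed below the diaphragm, and both recovered for 30 days. SAL, CEL, SC560 and INDOM rats were instead given saline (NaCl), celecoxib, SC-560 or indometacin subcutaneously for 10 days, at doses that the sources used here do not give. Celecoxib is an inhibitor of cyclooxygenase-2, SC-560 of cyclooxygenase-1 and indometacin of both enzymes. Each of these 6 pretreatments was then split into rats injected i.p. with 10 µg LPS in 100 µl saline and rats injected with saline alone, and 120 min afterwards the rats were decapitated and the hypothalamus removed. The arrays numbered 4 SH NaCl, 4 SH LPS, 3 VG NaCl, 5 VG LPS, 3 SAL NaCl, 4 SAL LPS, 5 CEL NaCl, 5 CEL LPS, 5 SC560 NaCl, 5 SC560 LPS, 5 INDOM NaCl and 3 INDOM LPS. The LPS rats of every pretreatment shared the dose and the time.

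LPS from the outer membrane of gram-negative bacteria is picked up in plasma by the LPS-binding protein, which hands it to CD14. CD14 passes it to the receptor complex of Toll-like receptor 4 and MD-2, the products of Tlr4 and Ly96. The activated receptor recruits the adaptor MyD88, which gathers kinases of the IRAK family and leads to NF-κB and to the transcription of cytokine genes. Toll-like receptor 2 uses the same adaptor for bacterial lipoproteins, CD180 is a Toll-like receptor 4 relative without a signalling domain, and IRAK3 is an inactive kinase that slows the pathway. In the brain of rodents these genes are known mainly from microglia, perivascular macrophages, the meninges and the circumventricular organs, where the blood-brain barrier is open.

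The arrays were alike as a whole, with array medians between 4.04 and 4.24 on the log2 scale and correlations between arrays of 0.932 to 0.976. Array 46, of a VG LPS rat, stood apart. The mean log2 of 7 hypothalamic marker genes was 3.78 in it against 6.00 to 7.06 in the others, and that of 5 choroid plexus markers was 8.12 against 3.79 to 5.65, so that its markers went against the labelled tissue. In the labels the order of the groups starts over at array 41, and arrays 1 to 40 and 41 to 56 are called the first and second array set. Both INDOM groups lay wholly in the second set, the CEL, SC560 and VG NaCl groups wholly in the first, and 3 of 4 SH NaCl arrays in the second. The mean intensities of the 8 clusters fell between 33.9% and 61.0% in the order of all clusters. Among the 14557 genes with a single-symbol cluster they fell between 22.6% and 49.3%. No detection call was used here, so that a low level cannot be told from background. Each cluster has its own probes, and levels were not compared between genes. In pieces of tissue, fewer cells of a type and less RNA per cell cannot be told apart.

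**Figure D1:**
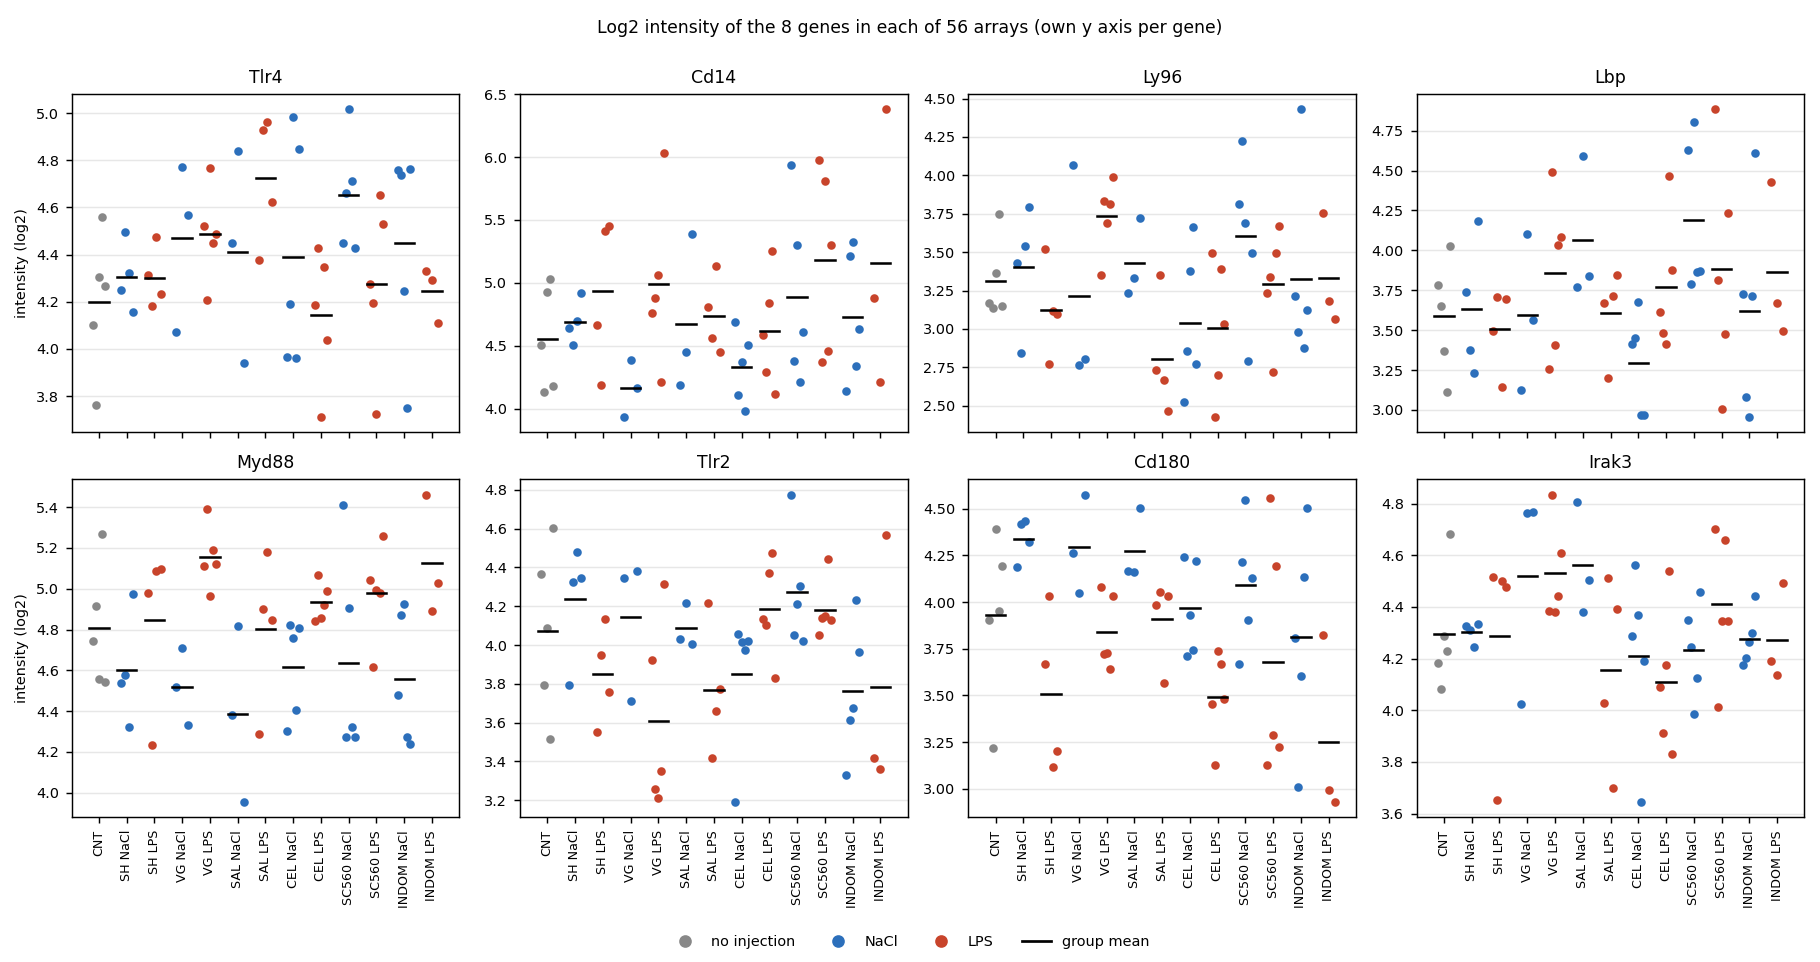
Log2 intensity (y axis, its own range for each gene) of the 8 genes in each array (points), by group (x axis), with the group mean as a black bar. Grey points are CNT, blue NaCl and red LPS arrays. For Cd180 the red points lie mostly below the blue points of the same pretreatment and for Myd88 mostly above them, while for the other genes the colours are mixed.

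LPS was first set against NaCl over the 6 pretreatments together, 26 LPS and 25 NaCl arrays, in a fit that allowed each pretreatment its own level. Myd88 was higher after LPS by 0.41 on the log2 scale and Cd180 was lower, with a difference of −0.52 (limma, adjusted p = 0.0075 and 0.0031). Cd14 was 0.35 higher (95% interval 0.04 to 0.66) and did not pass the adjustment over all clusters (limma, adjusted p = 0.889). The differences of Tlr4, Ly96, Lbp, Tlr2 and Irak3 were between −0.14 and 0.03. In the same comparison 0.346% of all transcript clusters were called higher and 0.0491% lower, against 1 and 1 of the 8 genes. The median difference was −0.08 over the 8 genes and −0.0028 over all clusters. Without array 46 the differences of Myd88 and Cd180 were 0.41 and −0.52, with adjusted p = 0.0104 and 0.0033.

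Myd88 encodes the adaptor through which Toll-like receptors 4 and 2 and the interleukin-1 receptors signal. In SH rats, the NaCl arrays read 4.54, 4.58, 4.32 and 4.97 and the LPS arrays 4.98, 4.23, 5.08 and 5.10. In VG rats, the NaCl arrays read 4.52, 4.71 and 4.33 and the LPS arrays 5.11, 5.39, 4.96, 5.19 and 5.12. The VG groups did not overlap, and in SH rats LPS array 6 alone was below all 4 NaCl arrays. In SAL rats, the NaCl arrays read 4.38, 4.82 and 3.95 and the LPS arrays 4.29, 4.90, 5.18 and 4.85. In CEL rats, the NaCl arrays read 4.30, 4.82, 4.76, 4.40 and 4.81 and the LPS arrays 4.84, 5.07, 4.86, 4.92 and 4.99. Here the CEL groups did not overlap, and 3 of 4 SAL LPS arrays exceeded the highest SAL NaCl array. In SC560 rats, the NaCl arrays read 5.41, 4.27, 4.91, 4.32 and 4.27 and the LPS arrays 5.04, 4.62, 4.99, 4.98 and 5.26. In INDOM rats, the NaCl arrays read 4.48, 4.87, 4.93, 4.27 and 4.24 and the LPS arrays 5.46, 4.89 and 5.03. In both pretreatments the groups overlapped, and SC560 NaCl array 36 was the highest of all 25 NaCl arrays. In CNT rats Myd88 read 4.75, 4.92, 4.56, 5.27 and 4.54, a range that held arrays of both injections. The CNT mean of 4.81 was above the means of all 6 NaCl groups, of which SC560 NaCl was highest (4.64). The means of the LPS groups ran from 4.80 in SAL to 5.16 in VG rats.

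Over the 26 LPS arrays Myd88 had a median of 4.99 (lowest 4.23, highest 5.46), and over the 25 NaCl arrays a median of 4.52 (3.95 to 5.41). Of the LPS arrays, 23 of 26 were above the mean of the NaCl arrays of their own pretreatment. The pooled difference of 0.41 ± 0.086 (SE) is a fold of 1.33 (95% interval 1.18 to 1.5). The mean was higher after LPS in 6 of 6 pretreatments, by 0.25 in SH, 0.32 in CEL, 0.34 in SC560, 0.42 in SAL, 0.57 in INDOM and 0.64 in VG rats. With 1 array left out it ran from 0.15 (without array 44) to 0.45 (without array 6) in SH, from 0.20 (without array 48) to 0.64 (without array 20) in SAL and from 0.25 (without array 40) to 0.53 (without array 36) in SC560 rats. With LPS and NaCl arrays of 1 pretreatment at a time, Myd88 did not pass the adjustment in any, and p before adjustment was under 0.05 in VG and INDOM rats (adjusted p = 0.539 and 0.915, limma). Its difference was 0.36 within the first array set and 0.60 within the second, and the call was lost in each (adjusted p = 0.311 and 1.00). It was also lost without the VG, CEL or INDOM rats (adjusted p = 0.105, 0.0513 and 0.0508), with differences of 0.37 to 0.43.

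Cd180 encodes the CD180 receptor (RP105), which pairs with the MD-1 protein and, in mouse macrophages, dampens signalling by Toll-like receptor 4. In SH rats, the NaCl arrays read 4.19, 4.42, 4.43 and 4.32 and the LPS arrays 3.67, 4.03, 3.12 and 3.21. In VG rats, the NaCl arrays read 4.26, 4.05 and 4.58 and the LPS arrays 4.08, 3.72, 3.73, 3.64 and 4.03. Every SH LPS array was below every SH NaCl array, and in VG rats only LPS array 9 exceeded the lowest NaCl array. In SAL rats, the NaCl arrays read 4.16, 4.16 and 4.50 and the LPS arrays 3.98, 4.05, 3.56 and 4.03. In CEL rats, the NaCl arrays read 4.24, 3.71, 3.93, 3.75 and 4.22 and the LPS arrays 3.46, 3.13, 3.74, 3.67 and 3.48. The SAL groups did not overlap, and 4 of 5 CEL LPS arrays were below the lowest CEL NaCl array. In SC560 rats, the NaCl arrays read 3.67, 4.21, 4.55, 3.90 and 4.13 and the LPS arrays 3.13, 4.55, 3.29, 4.19 and 3.22. In INDOM rats, the NaCl arrays read 3.81, 3.01, 3.60, 4.13 and 4.50 and the LPS arrays 3.83, 2.99 and 2.93. In these pretreatments the groups overlapped, with LPS arrays 32 and 34 at the level of the NaCl arrays in SC560 rats and NaCl array 53 at the level of the LPS arrays in INDOM rats. In CNT rats Cd180 read 3.91, 3.22, 4.39, 3.95 and 4.19, and the lowest of them was at the level of the lower LPS arrays. The CNT mean of 3.93 lay above that of INDOM NaCl rats (3.81). It lay below those of the other NaCl groups, which ran from 3.97 in CEL to 4.34 in SH rats. The means of the LPS groups ran from 3.25 in INDOM to 3.91 in SAL rats.

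Over the LPS arrays Cd180 had a median of 3.67 (lowest 2.93, highest 4.55), against 4.16 (3.01 to 4.58) over the NaCl arrays. Of the LPS arrays, 23 of 26 were below the NaCl mean of their own pretreatment. The pooled difference of −0.52 ± 0.101 (SE) is a ratio of LPS to NaCl of 0.700 (95% interval 0.607 to 0.805). The mean was lower after LPS in 6 of 6 pretreatments, with differences of −0.37 in SAL, −0.41 in SC560, −0.45 in VG, −0.48 in CEL, −0.56 in INDOM and −0.83 in SH rats. With 1 array left out it ran from −0.63 (without array 32) to −0.28 (without array 31) in SC560 and from −0.85 (without array 49) to −0.39 (without array 56) in INDOM rats. The SH difference alone (95% interval −1.30 to −0.37) did not pass the adjustment over all clusters (limma, adjusted p = 1.00). The pooled difference was −0.45 within the first array set and −0.70 within the second, where the call was lost (adjusted p = 0.156 and 1.00), and it was lost without the SH rats (−0.45, adjusted p = 0.0694). Ly86, which encodes MD-1, differed by 0.02 between LPS and NaCl (95% interval −0.23 to 0.28).

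**Figure D2:**
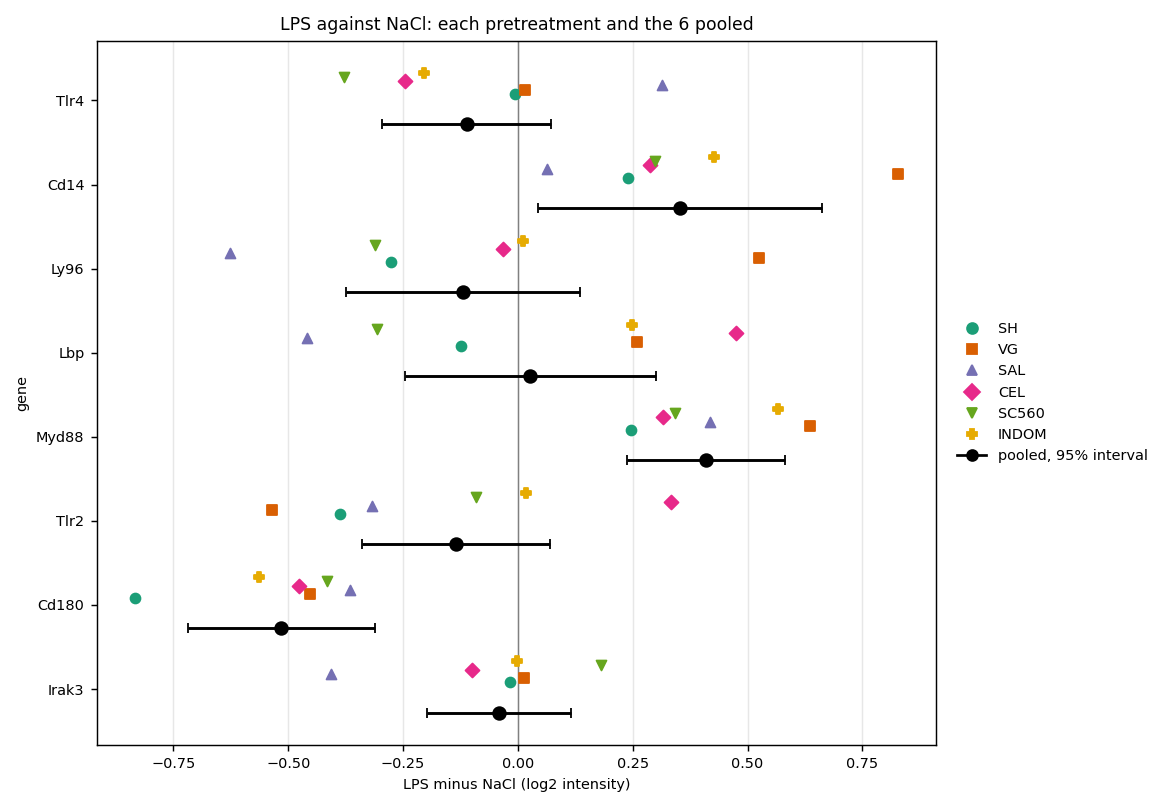
LPS minus NaCl in log2 intensity (x axis) for each gene (y axis). Coloured symbols are the differences of group means in the 6 pretreatments, and the black point with its bar is the pooled difference with its 95% interval. All 6 symbols of Myd88 and Cd14 lie above 0 and all 6 of Cd180 below it, and the pooled intervals of the other 5 genes include 0.

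The mean difference had 1 sign in all 6 pretreatments for 3 of the 8 genes, Myd88, Cd14 and Cd180, and for 3.53% of all clusters. For Myd88 and Cd180 this adds little, since the pooled test called them on the same arrays. Groups that did not overlap were counted for all clusters too. This held for 2.5% of clusters in SH, 4.04% in VG, 4.72% in SAL, 0.924% in CEL, 0.777% in SC560 and 2.39% in INDOM rats. Of the 8 genes it held for Cd180 in SH and SAL rats and for Myd88 in VG and CEL rats, and for 0 of 8 in SC560 and INDOM rats.

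The start regions of the called genes are printed so that a reader can see which sequence lies upstream of each. They come from RefSeq for the GRCr8 build and end where the annotated gene begins, 250 bases at chr8:127956231-127956480 on the minus strand for Myd88 and 209 bases at chr2:35589680-35589888 on the plus strand for Cd180, written 5′ to 3′ on the gene's strand. Capitals mark matches to the motifs searched.
Myd88: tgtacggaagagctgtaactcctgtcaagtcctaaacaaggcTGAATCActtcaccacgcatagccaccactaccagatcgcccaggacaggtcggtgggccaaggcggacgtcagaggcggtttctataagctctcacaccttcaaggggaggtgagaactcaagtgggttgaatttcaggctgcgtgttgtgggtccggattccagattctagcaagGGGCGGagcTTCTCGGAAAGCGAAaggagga
Cd180: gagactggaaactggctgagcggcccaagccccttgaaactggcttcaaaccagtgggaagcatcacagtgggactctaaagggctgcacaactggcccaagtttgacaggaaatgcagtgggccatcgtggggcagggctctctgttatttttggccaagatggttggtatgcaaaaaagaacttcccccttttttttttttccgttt
A promoter was on hand for 6 of the 8 genes, and none for Ly96 and Lbp. In the window of 250 bases before to 50 after the start, both strands were searched for the NF-κB consensus, TGANTCA (AP-1), TTNNGCAA (C/EBP), GAAANNGAA (interferon response-like), TTCNNNGAA (STAT), GAGGAA (PU.1 core), GGGCGG (Sp1) and TATAAA, where N is any base. The Myd88 window held TGANTCA from position −208, GGGCGG from −31, TTCNNNGAA from −22 and GAAANNGAA from −16 relative to the start, of which the matches at −22 and −16 overlap. These motifs were present in 7.33%, 33.1%, 8.87% and 9.71% of all 33469 rat promoters of the same length. The Cd180 window held 0 matches to the 8 motifs. The NF-κB consensus, present in 7.51% of promoters, matched in Tlr2 and Irak3, and GAGGAA, present in 27.6%, in Tlr4 and Cd14. Besides Myd88, GAAANNGAA matched in Cd14, and GGGCGG in Tlr2 and Irak3. A match is a run of letters and not a known site.

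Cd14 encodes the protein that hands LPS to the receptor complex. In VG rats the NaCl arrays read 3.93, 4.39 and 4.16 and the LPS arrays 4.76, 4.88, 5.06, 4.21 and 6.03, and the highest of these is array 46. In INDOM rats the LPS arrays read 4.88, 4.21 and 6.38 against 4.14 to 5.32 in the NaCl arrays. In SC560 rats Cd14 ranged from 4.37 to 5.97 after LPS and from 4.21 to 5.94 after NaCl. The groups overlapped in every pretreatment, and 17 of 26 LPS arrays were above their own NaCl mean. Over all LPS arrays the median was 4.83 (lowest 4.12, highest 6.38) and over NaCl arrays 4.51 (3.93 to 5.94). Its mean difference was 0.06 in SAL, 0.24 in SH, 0.29 in CEL, 0.30 in SC560, 0.43 in INDOM and 0.83 in VG rats. With 1 array left out it ran from 0.07 (without array 42) to 0.49 (without array 6) in SH, from 0.13 (without array 24) to 0.41 (without array 25) in CEL and from 0.10 (without array 31) to 0.56 (without array 36) in SC560 rats. Without array 46 the VG difference was 0.57 and the pooled one 0.31. Without INDOM LPS array 51 the INDOM difference turned to −0.19, and without the SAL arrays 18, 19 or 20, 1 at a time, the SAL difference lay between −0.18 and −0.05.

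Tlr4 encodes the signalling receptor for LPS and Ly96 its co-receptor MD-2. The median of Tlr4 was 4.34 over the LPS arrays (lowest 3.71, highest 4.96) and 4.45 over the NaCl arrays (3.75 to 5.02), a pooled difference of −0.11 (95% interval −0.30 to 0.07). Its arms ran from −0.38 in SC560 to 0.31 in SAL rats. Ly96 had medians of 3.29 (2.43 to 3.99) and 3.33 (2.53 to 4.43), a pooled difference of −0.12 (−0.37 to 0.14), with arms from −0.63 in SAL to 0.52 in VG rats. Both receptor genes were lower after LPS in 4 of 6 pretreatments, and their groups overlapped in all 6.

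Lbp encodes the LPS-binding protein, made in quantity by the liver in the acute phase. Its pooled difference was 0.03 (−0.25 to 0.30), with medians of 3.68 (3.01 to 4.88) after LPS and 3.73 (2.96 to 4.80) after NaCl, and it was higher in 3 pretreatments and lower in 3. Tlr2, the receptor for bacterial lipoproteins, differed by −0.14 (−0.34 to 0.07), with arms from −0.54 in VG to 0.33 in CEL rats. Its mean was lower after LPS in 4 pretreatments and higher in 2. Irak3, which encodes the inactive kinase of the MyD88 complex, differed by −0.04 (−0.20 to 0.12). For Tlr2 the medians were 4.00 (3.21 to 4.57) after LPS and 4.03 (3.19 to 4.78) after NaCl, and for Irak3 4.38 (3.65 to 4.84) and 4.31 (3.64 to 4.81). Neither gene separated the injections in any pretreatment.

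The next question was whether the LPS effect differed among the 6 pretreatments. limma's F-test of the 5 interaction terms called 0% of the clusters, and adjusted p was 1.00 for each of the 8 genes, whose F lay between 0.39 and 1.83. Before adjustment 1577 clusters and 0 of the 8 genes had p under 0.05. Of the 6 pretreatments alone, LPS against NaCl called 0.00273% of clusters in VG, 0.00818% in INDOM and 0% in SH, SAL, CEL and SC560 rats, and 0 of the 8 genes in each. These counts moved with single arrays. Without SC560 NaCl array 36, 29 clusters were called in SC560 and 16 in CEL rats, and without INDOM LPS array 51, 9 were called in CEL rats. With 1 array left out, the count ran from 0 (without array 49 or 50) to 10 (without array 53) in INDOM rats, where all arrays gave 3, and from 0 to 3 (without SH LPS array 6) in VG rats, where all arrays gave 1. Before adjustment Cd180 had p under 0.05 in SH, Cd14 and Myd88 in VG and Myd88 in INDOM rats. Of all clusters 3.42% had p under 0.05 in SH, 7.02% in VG and 5.42% in INDOM rats (limma). In SAL, CEL and SC560 rats it was 4.05%, 5.57% and 3.62% of clusters and 0 of the 8 genes. Without array 46, p before adjustment in VG rats was 0.0665 for Cd14, 0.0086 for Myd88 and 0.0124 for Tlr2 (limma). The Tlr2 difference in VG rats was then −0.71, and 0 of the 8 genes were called.

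Vagotomy was compared with the sham operation under each injection. VG NaCl against SH NaCl and VG LPS against SH LPS called 0% of clusters each, and the test of whether LPS acted differently in VG than in SH rats called 0.00273%, none of them among the 8 genes. Ly96 alone of the 8 had p under 0.05 before adjustment, in the LPS groups and in the difference of the effects. Over all clusters this held for 4.14% and 5.37% (limma), so that 1 of 8 genes is no more than a description. In the NaCl groups it held for 7.97% of clusters and 0 of the 8 genes. After LPS, Ly96 read 3.35, 3.84, 3.69, 3.82 and 3.99 in VG and 3.52, 2.77, 3.12 and 3.10 in SH rats, so that 4 of 5 VG arrays exceeded the highest SH array. The difference was 0.61 (95% interval 0.09 to 1.13; limma, adjusted p = 1.00). After NaCl the VG arrays read 4.07, 2.76 and 2.80 and the SH arrays 3.43, 2.84, 3.54 and 3.79, and the groups overlapped. The LPS effect on Ly96 differed between VG and SH by 0.80 (95% interval 0.02 to 1.58; limma, adjusted p = 0.924). Without array 46 these differences were 0.55 and 0.74, and neither had p under 0.05 before adjustment. The test of the difference of the effects then called 0 clusters. The difference of the effects was 1.23 without VG NaCl array 13 and 0.58 without VG NaCl array 14. For Myd88 the LPS effect differed by 0.39 and for Cd180 by 0.38 between VG and SH, and neither had p under 0.05 before adjustment.

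Against untouched CNT rats, the SH NaCl and VG NaCl rats showed 0% of clusters called and 0 of the 8 genes. The 8 differences ran from −0.20 to 0.41 for SH NaCl and from −0.39 to 0.36 for VG NaCl. Cd180 gave the highest value of both, in rats that had had surgery and a saline injection.

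The cyclooxygenase inhibitors were compared with saline pretreatment. CEL NaCl, SC560 NaCl and INDOM NaCl against SAL NaCl called 0% of clusters each, as did CEL LPS and SC560 LPS against SAL LPS, and INDOM LPS against SAL LPS called 0.00818%, or 3 clusters. These 3 became 0 with the array set in the fit or without array 16, 17, 18 or 49, and 14 without array 51. None of the 8 genes was among them. Before adjustment 3 genes reached p under 0.05, each in 1 of these comparisons. Over all clusters the share with p under 0.05 ran from 3.96% (SC560 NaCl) to 5.51% (INDOM NaCl) in these comparisons (limma). It was 4.62% in CEL NaCl, 4.61% in CEL LPS and 4.98% in INDOM LPS rats, where 1 of the 8 genes reached it in each. Lbp was lower in CEL NaCl rats (3.42, 3.45, 3.67, 2.97 and 2.97) than in SAL NaCl rats (3.77, 4.59 and 3.84), a difference of −0.77 (−1.5 to −0.05). These groups did not overlap for Lbp, 1 of the 8 genes, as for 3.59% of all clusters. Without SAL NaCl array 20 the difference was −0.51. Tlr4 was lower in CEL LPS rats (4.19, 4.43, 3.71, 4.35 and 4.04) than in SAL LPS rats (4.38, 4.93, 4.96 and 4.62), a difference of −0.58 (−1.06 to −0.10), and the groups overlapped. Cd180 was lower in INDOM LPS than in SAL LPS rats, a difference of −0.66 (−1.28 to −0.04), and the groups overlapped, but 3 of 4 SAL LPS arrays were in the first array set and all INDOM arrays in the second. With the array set in the fit this difference was −0.85. After adjustment over all clusters p was 1.00 for Lbp and Tlr4 and 0.99 for Cd180.

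Celecoxib and SC-560 are both diaryl pyrazoles, of which celecoxib carries a sulfonamide group and SC-560 a methoxy group in its place, and a methyl group of celecoxib is a chlorine in SC-560. They were compared in 2 pairs of groups, 1 for each injection. CEL NaCl against SC560 NaCl and CEL LPS against SC560 LPS each called 0% of clusters and 0 of the 8 genes. After NaCl, Lbp read 4.63, 3.79, 4.80, 3.86 and 3.87 in SC560 rats, above the CEL NaCl arrays. Groups that did not overlap were found for 1 of the 8 genes and 0.968% of all clusters. The difference was −0.90 (−1.53 to −0.27), with adjusted p = 0.955 in limma. After LPS the Lbp arrays of CEL rats (3.41 to 4.46) and SC560 rats (3.01 to 4.88) overlapped. The 8 differences ran from −0.90 to −0.02 after NaCl and from −0.57 to 0.0005 after LPS, and the widest of their intervals reached −1.53 and −1.32. The doses were not known, so equal exposure cannot be assumed.

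Ordered by group mean, Myd88 was highest in VG LPS (5.16) and lowest in SAL NaCl rats (4.39), and Cd180 was highest in SH NaCl (4.34) and lowest in INDOM LPS rats (3.25). Cd14 ran from 5.18 in SC560 LPS to 4.16 in VG NaCl rats, Ly96 from 3.74 in VG LPS to 2.80 in SAL LPS rats and Lbp from 4.19 in SC560 NaCl to 3.29 in CEL NaCl rats. Tlr4 ran from 4.72 in SAL LPS to 4.14 in CEL LPS, Tlr2 from 4.27 in SC560 NaCl to 3.61 in VG LPS and Irak3 from 4.56 in SAL NaCl to 4.11 in CEL LPS rats. For none of the 8 genes did neighbouring groups in this order differ by more than the pooled SD within groups, which was 0.27 for Irak3 and 0.57 for Cd14 at the extremes.

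The genes varied against each other as follows over the 56 arrays, which share tissue, dissection and array sets. Myd88 and Cd180 had r = −0.56, and r = −0.46 for the deviations from the group means. Cd14 and Myd88 had r = 0.44 and 0.37. Of the 28 pairs, 3 had r beyond 0.3 in size, and the median r was 0.13. Tlr4 and Ly96, whose products form 1 receptor, had r = 0.04.

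**Figure D3:**
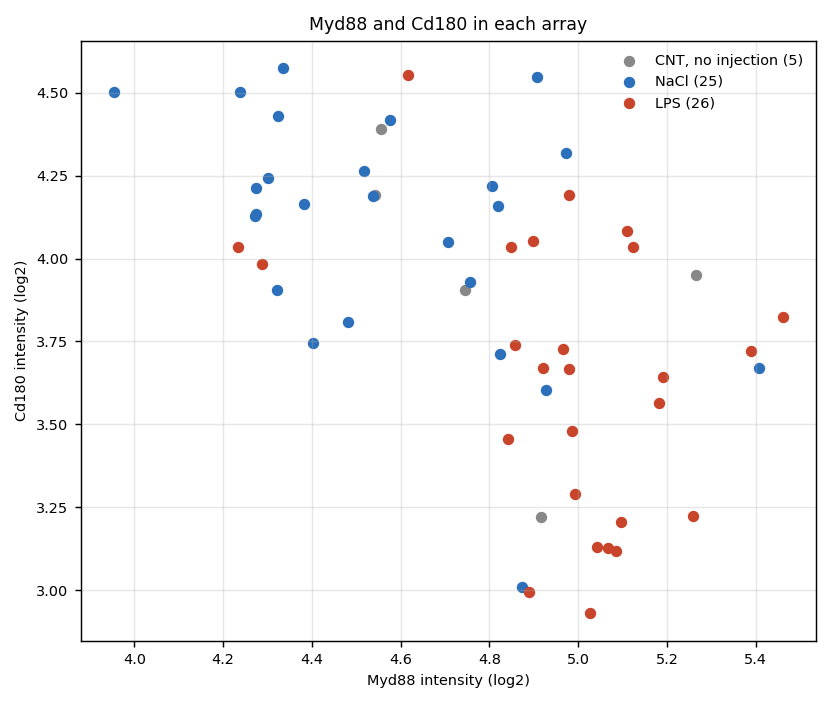
Log2 intensity of Cd180 (y axis) against that of Myd88 (x axis) in each of 56 arrays, coloured by injection. LPS arrays (red) lie mostly to the lower right and NaCl arrays (blue) to the upper left, with r = −0.56 over all arrays.

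The genes whose levels followed each member most closely were looked up among all single-symbol genes, by r over the 56 arrays. For Myd88 they were Pdk4 (r = 0.74), a kinase that restrains pyruvate oxidation, Ptgs2 (0.73), which encodes cyclooxygenase-2, and the metallothionein gene Mt2A (0.69). All 3 were called higher after LPS, and these correlations share the injection. For Cd14 they were Rhoj (0.68), a small GTPase of endothelium, Socs1 (0.67), a brake on cytokine signalling, and the metallothionein gene Mt1f (0.66). For Cd180 they were Serpinb6b (0.51), Ocln (0.51), which encodes the tight junction protein occludin, and Gpr34 (0.50), a receptor of microglia. Serpinb6b and Ocln were called lower after LPS, and Gpr34 was not (limma, adjusted p = 0.0941). Within groups Pdk4 (0.70) and Ptgs2 (0.62) were still among the 3 closest to Myd88, Socs1 (0.63) and Mt1f (0.61) to Cd14, and Ocln (0.48) to Cd180. For Lbp they were Bmp6 (0.72), a growth factor, Aldh1a2 (0.71), an enzyme of retinoic acid synthesis, and Slc6a20a (0.70), a transporter of proline. For Tlr4, Ly96, Tlr2 and Irak3 the highest r lay between 0.51 and 0.54.

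Markers of cells that could carry these genes were set beside them. Of 11 microglial markers measured, 7 were higher and 4 lower after LPS and 0 were called, with a median difference of 0.07. Their summed linear intensity ran from 510 to 946 in LPS and from 511 to 1023 in NaCl arrays. The defining markers Cx3cr1, P2ry12 and Tmem119 differed by −0.17, −0.17 and 0.13. The complement genes C1qa, C1qb and C1qc had the highest differences of the list, 0.17, 0.20 and 0.32, of which C1qc had the lowest adjusted p (0.427, limma). Of 6 endothelial markers all 6 were lower after LPS and 2, Cldn5 and Tek, were called, with a median of −0.32. The drop was uneven, with −0.92 for Cldn5, −0.44 for Tek, −0.43 for Abcb1a, −0.22 for Emcn, −0.07 for Flt1 and −0.02 for Cdh5. Flt1 was lower in 3 and Cdh5 in 4 of the 6 pretreatments. The summed intensity of the 6 markers ran from 201 to 584 in LPS and from 351 to 590 in NaCl arrays. The endothelial mean followed Cd180 with r = 0.44, Myd88 with r = −0.41 and Cd14 with r = −0.48. Its part in these differences was not tested.

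Of 6 markers of blood myeloid cells 4 were higher and 2 lower after LPS, 0 were called, and the median was 0.09. Their summed intensity ran from 32.6 to 256 in LPS and from 32.6 to 130 in NaCl arrays, with S100a8 and S100a9 0.66 and 0.73 higher. The highest means of these markers were in the INDOM arrays 49, 50 and 53, at 4.25, 3.81 and 3.70 on the log2 scale against 2.34 to 3.32 in all others. In these arrays the mean of the 2 red blood cell markers measured was 6.70, 7.28 and 6.85. Its median was 4.79 over all LPS and 4.67 over all NaCl arrays. INDOM NaCl array 52 read 6.52 for the red blood cell and 2.81 for the myeloid markers. The red blood cell mean followed Myd88 with r = 0.10, and its part was not tested. Array 49 also had the highest Myd88 level of all arrays. The mean of the blood myeloid markers followed Myd88 with r = 0.49 (0.46 within groups) and Cd180 with r = −0.43 (−0.23 within groups), and its part in their differences was not tested. Of the 3 perivascular macrophage markers measured, 1 was higher, 2 were lower and 0 were called. The 7 meningeal markers were higher after LPS in 3 cases and lower in 4, with 0 called, and their mean followed Lbp with r = 0.75, also within groups (r = 0.75) and without array 46 (r = 0.74). Their summed intensity ran from 148 to 680 in LPS and from 145 to 847 in NaCl arrays, so that the summed level of these markers varied widely within each injection. Its part in the Lbp differences between groups was not tested.

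Of the rest of the pathway, 54 of 70 listed genes had a cluster of their own, 36 of them higher and 18 lower after LPS over the 6 pretreatments, and 6 were called, all higher. Of 8 transcription factors 7 were higher and 2 called, with a median of 0.17. They were Irf7 (0.85 ± 0.148 SE), a factor of the interferon response, and Nfkb2 (0.60 ± 0.110), a subunit of NF-κB. Of 15 measured brakes on the pathway 11 were higher and 4 called, with a median of 0.09. They were Nfkbia (1.34 ± 0.163), the inhibitor that holds NF-κB in the cytoplasm, Bcl3 (0.70 ± 0.102), its nuclear relative, Socs1 (0.61 ± 0.140) and Dusp1 (0.57 ± 0.128), a phosphatase of MAP kinases. Each of these 6 genes was higher after LPS in all 6 pretreatments, which adds little, since they were picked by the pooled test on the same arrays. Of all clusters 0.346% were called higher in this test, against 6 of the 54 genes, whose lists were chosen with earlier results known.

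The other lists held 0 called genes. Of 10 other Toll-like receptors and their chaperones 5 were higher and 5 lower, with a median of −0.0057. Of 15 adaptors and kinases that act with MyD88 or beside it 10 were higher and 5 lower, with a median of 0.04. Of 4 genes of LPS binding and clearance 3 were higher and 1 lower, and both of the 2 measured cytokine receptors that use MyD88 were lower. Over the whole array 92 single-symbol genes were called higher and 16 lower. Myd88 ranked 85 of the 92 by the size of its change, and Cd180 ranked 8 of the 16.

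**Figure D4:**
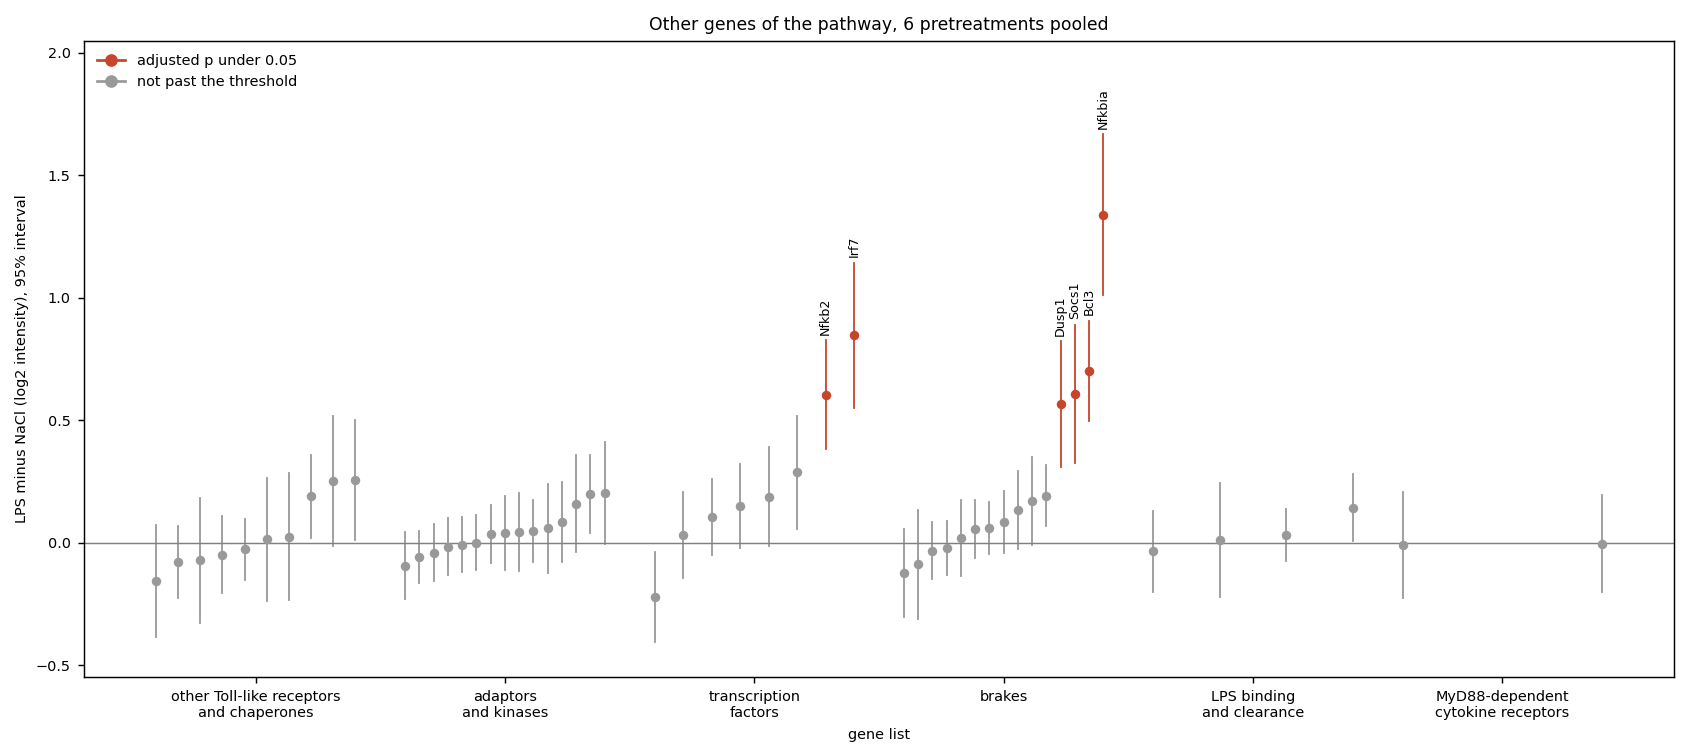
LPS minus NaCl in log2 intensity (y axis, pooled over 6 pretreatments, with 95% intervals) for 54 further genes of the pathway in 6 lists (x axis). Red marks the 6 called genes, which are transcription factors and brakes, and grey the other 48.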

How the data were processed

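RNA of the rat medial hypothalamus was measured on 56 Affymetrix Rat Gene arrays. The authors deposited 1 linear intensity per transcript cluster and array. The submitters' processing notes name RMA and Expression Console, without a version, whereas the study's methods describe RMA background correction, quantile normalization, log2 and median polish in Partek Genomics Suite, so which program made the table is not settled. The planned tests assumed deposited log2 values, but the table held linear intensity, so log2 was taken first. Groups came from the labels. Coordinates and symbols follow the platform annotation and RefSeq (GRCr8).

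Differences were fitted with limma 3.58.1 in R 4.3.3 on the log2 scale, with Benjamini-Hochberg adjustment over 36685 clusters and a threshold of 0.05. LPS was compared with NaCl over 51 arrays with pretreatment as a covariate. The single comparisons used group means of the 21 CNT, SH and VG arrays or of the 35 arrays of the subcutaneous pretreatments, 21 comparisons in all. Intervals are 95% intervals. The fits were tested on simulated data. Correlations are descriptions and were given no p. The number of arrays limits the precision. Each p-value sets a difference against the spread between rats that the fit leaves, which can include dissection and array set. Motifs were searched with Python 3.11.15.

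The 8 genes, the pathway and marker lists and the tests were chosen with earlier results of these data known. Genes of the lists were named where they were called in the pooled comparison, and the 3 genes most like each member by r. The partner gene of Cd180, the single markers not called and the array numbers were named after their values were seen. Alternatives covered the variance model, the clusters kept, a second quantile normalization, array sets, array weights, each pretreatment and each array left out.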

Additional observations from a re-analysis of the deposited data

Results flagged for a closer look

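Of 80 sets of values, 1 gene in 1 group of 4 or 5 arrays, 6 held an array far from the others of its group by Dixon's test, where chance gives about 1 in 20. Groups of 3 arrays were not tested. In SH LPS rats array 6 was lowest both for Myd88 (4.23, the others 4.98 to 5.10) and for Irak3 (3.65, the others 4.48 to 4.51). Cd180 in SAL LPS rats was lowest in array 18 (3.56, the others 3.98 to 4.05), which also had the lowest endothelial marker mean of all arrays (5.00). Ly96 in INDOM NaCl rats was highest in array 54 (4.43, the others 2.88 to 3.21). Tlr2 was lowest in CEL NaCl array 26 (3.19, the others 3.97 to 4.06) and highest in SC560 LPS array 34 (4.44, the others 4.05 to 4.15). With each of these arrays left out, Myd88 and Cd180 still passed the pooled test.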

How the results depend on the processing

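With each of the 51 arrays left out, the pooled difference lay between 0.38 and 0.45 for Myd88 (adjusted p up to 0.0176, limma) and between −0.56 and −0.49 for Cd180 (up to 0.0078), and 2 of the 8 genes were called each time. The number called was 1 among clusters above the median intensity, where Cd180 was not tested, 1 without the SH, VG, CEL or INDOM rats, and 0 in arrays 1 to 40 or 41 to 56 alone, which hold fewer arrays. Myd88 was then 0.36 (adjusted p = 0.311) in arrays 1 to 40, 0.60 (1.00) in arrays 41 to 56, 0.37 (0.105) without VG, 0.43 (0.0513) without CEL and 0.38 (0.0508) without INDOM rats. Cd180 was −0.45 (0.156), −0.70 (1.00) and, without SH rats, −0.45 (0.0694). Of all clusters, 53 were higher and 3 lower in arrays 1 to 40, and 0 and 0 in arrays 41 to 56. The titles of arrays 13, 20, 35 and 52 carry an added 2, which the labels do not explain. The number lower was 6 without these arrays or without SAL rats and 4 without SH, CEL or SC560 rats. It was 11 with the array set in the fit and array 46 left out. The direction of Lbp turned to −0.0274 in arrays 1 to 40, −0.0039 with array weights, −0.0144 without VG, −0.0126 without INDOM and −0.0859 without CEL rats, and lay between −0.0152 and 0.0741 with 1 array left out. Irak3 turned to 0.0171 without SAL rats and to 0.0242 in arrays 41 to 56. Cd14 in SAL rats was −0.0486 without the arrays whose titles carry an added 2 and −0.94 in arrays 41 to 56. With 1 array left out it lay between −0.18 and 0.42 in SAL and between −0.19 and 0.90 in INDOM rats. The cause was not tested. The fits on arrays 41 to 56 alone and with the array set and array 46 together were chosen after seeing the data. Of 128 other differences of the 8 genes, 52 changed sign under at least 1 alternative and 0 were called. No paired analysis was possible because the labels give each array a number of its own that no other group shares.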
